A study of Mus musculus with 2 samples.

Results

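Islet cells take up amino acids through membrane carriers and feed them into a small set of enzymes. The 9 genes described here encode 6 carrier subunits (Slc38a5, Slc38a4, Slc7a2, Slc7a5, Slc7a8 and Slc3a2) and 3 enzymes (Arg1, Glud1 and Got1). Among these carriers, Slc3a2 is the shared partner of Slc7a5 and Slc7a8. The 9 genes were picked by symbol from the 31053 genes of the single-cell count matrices, and each symbol had 1 row. The genes were followed across 4 hormone cell types of the mouse pancreatic islet and between islets of virgin and of repeatedly pregnant (multipara) mice. The comparison asked how islet cells differ after multiparity. Both groups were wild-type C57BL/6J females that entered the study at 9 weeks of age. The multipara mice went through 3 consecutive pregnancies and were sampled 3 weeks after the last delivery, and the virgin mice were age-matched and never mated. Islets of both groups were cultured for 30 min in serum-containing medium and dissociated with 0.25% trypsin. Each group was 1 library, and the labels do not give the number of mice in it. No difference between virgin and multipara below therefore has a replicate check, no test between the groups was run, and the statements compare 2 libraries rather than 2 conditions.

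Amino acids act on the islet in a cell-type-specific way. α cells release glucagon in response to amino acids such as arginine, alanine and glutamine, and glucagon in turn drives amino acid breakdown in the liver, so that α cells and liver form a feedback loop in which circulating amino acids also control α cell number. β cells respond to leucine and glutamine through glutamate dehydrogenase and to arginine through the positive charge that the carrier brings in. δ cells release somatostatin, which restrains both neighbours.

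The bases just before the start sites of Slc38a5 and Got1 held a searched motif, and these stretches are shown to give the sequence context of the member with the highest ratio between the libraries in α cells (Slc38a5) and of a gene of the malate-aspartate shuttle (Got1). Windows of 250 bases before the annotated start of each gene were taken from RefSeq (mouse build GRCm38.p6), which listed 8 windows for 6 of the 9 genes. Both strands were searched for the E-box CACGTG and for TGATGNAA, a core element read by dimers of C/EBP and ATF proteins, the transcription factors of the amino acid response. Each stretch held 1 match, and no matches overlapped. The last 120 bases before the start are printed 5′ to 3′ on the strand of the gene, with the match in capitals. The Slc38a5 stretch lies at chrX:8271261-8271380 on the plus strand, and its E-box begins 30 and ends 25 bases before the start. The Got1 stretch lies at chr19:43524606-43524725 on the minus strand, and TTGCATCA, which is TGATGNAA read on the other strand, begins 102 and ends 95 bases before the start. The RefSeq start of Slc38a5 and its printed bases lie inside the longer gene model of GENCODE, and the Got1 bases lie just outside its gene model.
Slc38a5: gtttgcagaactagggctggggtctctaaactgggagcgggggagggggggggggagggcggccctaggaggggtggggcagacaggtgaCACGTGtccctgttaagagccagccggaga
Got1: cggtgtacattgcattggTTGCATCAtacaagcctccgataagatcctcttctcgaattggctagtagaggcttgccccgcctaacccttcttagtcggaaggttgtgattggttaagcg
Of 32851 windows of the same length, 6.02% held CACGTG and 3.45% held TGATGNAA. A match describes the letters only.

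The virgin library held 5463 barcodes with 94853806 unique molecular identifiers (UMIs, each marking 1 captured RNA molecule) and the multipara library 5075 barcodes with 82503776 UMIs. The libraries shared 7 barcodes, of which 2 were gated as endocrine cells in both. After filtering, cells were assigned by their hormone, glucagon for α, insulin for β, somatostatin for δ and pancreatic polypeptide for PP cells. This gave 1038 virgin and 646 multipara α cells, 1820 and 1585 β cells, 190 and 162 δ cells and 88 and 90 PP cells. The labels were checked on markers that the gate did not use. The summed level of 6 α markers was 39937 and 39016 counts per 1000000 UMIs (CPM) in α cells and at most 2952 CPM elsewhere, and 3 δ markers summed to 6047 and 6318 CPM in δ cells. The 7 β markers summed to 44984 and 45362 CPM in β cells, but also to 24922 and 28623 CPM in δ cells, of which the islet hormone Iapp gave 24789 and 28490 CPM. Pdx1 stood in δ cells at 94.1% and 97.5% of its β cell level, and the other 5 β markers at 1.21 to 4.82%. PP cells had Pyy at 121124 and 120999 CPM, but δ cells held 44661 and 36924 CPM and α cells 16231 and 17627 CPM. In β cells Pyy stood at 827 and 316 CPM. Median depth per cell was 16402 and 17453 UMIs in α, 30002 and 32314 in β, 10455.5 and 10440 in δ and 22268.5 and 22601.5 in PP cells. Throughout, values are given for virgin first and multipara second.

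Levels and differences are on different scales. A level is in CPM, the share that a gene had of all UMIs of that cell type in that library, with an exact Poisson 95% interval that covers counting error only. In these cells the 4 hormones together take much of the total, from 22.1% of UMIs in virgin δ cells to 58.5% in multipara β cells. The cell types were therefore compared on a second scale, a log2 fold change after scaling by the trimmed mean of M-values (TMM), with edgeR's quasi-likelihood test on 8 sums (4 cell types in 2 libraries) and Benjamini-Hochberg adjustment over the 12784 genes tested. A comparison with β cells moves by −0.42 (α over β) to 0.95 (β over δ, multipara) on the log2 scale when CPM are replaced by TMM, and a direction that differs between the scales is named where it is given. The spread behind each SE is the disagreement of the 2 libraries on a difference between cell types, which contains any effect of multiparity.

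The carriers and enzymes were unevenly spread over the 4 cell types. Of the 9 genes, 6 were higher and 2 lower in α than in β cells at an adjusted p below 0.05, beside 27.5% of all genes tested that were higher and 28.7% that were lower. Against δ cells, 7 were higher and 1 lower in α cells (14.8% and 14.9% of all genes). Against PP cells, 7 were higher and none lower in α cells (6.46% and 6.78% of all genes). β cells had 6 of the 9 higher and 3 lower than δ cells (21.6% and 21.1% of all genes) and 5 higher and 2 lower than PP cells (17.5% and 16.1%). δ cells had 2 higher and 4 lower than PP cells (7.62% and 7.92%). The median log2 fold change of the 9 genes in α over β cells was 0.88, beside −0.01 for all genes. The range over cell types was widest for Slc38a5, whose highest level was 116 and 308 times its lowest, and for Arg1 at 68.9 and 214 times. It was narrowest for Got1, at 1.48 and 1.33 times.

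**Figure D1:**
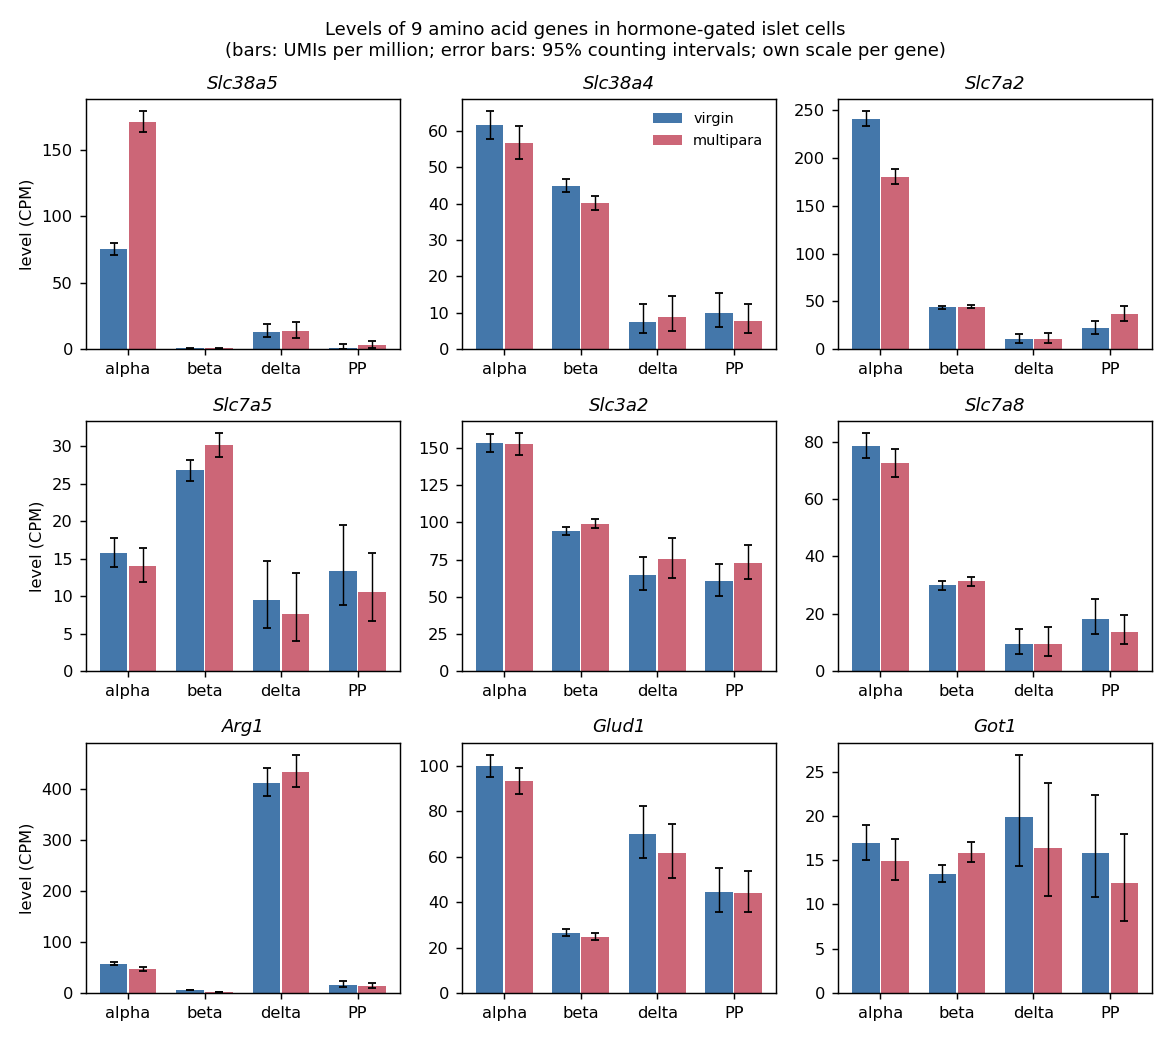
Level (CPM, y axis, own scale per gene) of the 9 genes in α (alpha), β (beta), δ (delta) and PP cells (x axis) of the virgin and multipara libraries; bars are CPM and error bars 95% counting intervals. Slc38a5 stands at 75.2 CPM in virgin and 171 CPM in multipara α cells, and Arg1 at 412 and 433 CPM in δ cells, each far above the same gene's bars in the other cell types.

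Slc38a5 (chrX:8271133-8280179, plus strand) encodes SNAT5, a sodium-coupled carrier of glutamine, asparagine, serine and histidine that α cells are known to induce when circulating amino acids are high. In α cells it stood at 75.2 CPM (71.1 to 79.5) and 171 CPM (163 to 179). δ cells held 13.3 CPM (8.81 to 19.2) and 13.5 CPM (8.56 to 20.3). β cells held 0.647 CPM (0.448 to 0.904) and 0.555 CPM (0.362 to 0.813). In PP cells 2 and 6 UMIs were counted, 5 of the 6 in a single cell. The gene was therefore an α cell transcript in both libraries, with a low second level in δ cells. On the TMM scale α cells exceeded β cells by 7.16 ± 0.19 (SE) in log2 (edgeR adjusted p = 6.2e-16), δ cells by 3.63 ± 0.22 (edgeR adjusted p = 2.7e-10) and PP cells by 5.70 ± 0.33 (edgeR adjusted p = 1.5e-09). The 2 libraries taken singly gave 6.44 and 7.84 over β cells and 3.02 and 4.18 over δ cells. β and PP cells, neighbours in this order, were not separated (−1.46, edgeR adjusted p = 0.17).

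At least 1 Slc38a5 UMI was seen in 41.3% of virgin α cells and in 57.1% of multipara α cells. Free RNA can put UMIs into cells that do not express a gene, so cell types that lack it serve as background. No UMI was seen in 253 virgin and 219 multipara endothelial cells, which allows shares of up to 1.19% and 1.37% (3 counts of the total) at median depths of 4355 and 5111 UMIs. In β cells, the Slc38a5 level was 0.861% and 0.325% of the α cell level, close to that of the α cell factor Irx1 (0.530% and 0.438%) and below that of Irx2 (1.84% and 1.04%). In δ cells it was 17.6% and 7.90% of the α cell level, while Irx2 stood at 6.40% and 7.49% and Irx1 at 2.93% and 3.34%. The δ cell signal thus lay above both α cell factors in each of the libraries, although its multipara excess over Irx2 rested on 23 against 12 UMIs.

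Slc38a5 also differed between the libraries in α cells. The multipara level was 2.27 times the virgin level, a log2 ratio of 1.18 (95% counting interval 1.08 to 1.29), which placed the gene at the 99.8th percentile of all genes with at least 50 UMIs in α cells. δ cells gave a log2 ratio of 0.03 (−0.84 to 0.87) and β cells −0.22 (−1.02 to 0.56), both intervals including 0. Whether the α cell ratio differed from these was not tested. In the same α cells the 6 α markers summed to 39937 and 39016 CPM and 7 β markers to 1224 and 1251 CPM.

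The higher Slc38a5 level came with more cells that held a UMI and, to a larger extent, with more cells that held many. After every cell was thinned to 5000 UMIs, which left out 84 and 34 shallower α cells, the share of α cells with a Slc38a5 UMI was 21.2% (18.6 to 23.9) and 30.7% (27.1 to 34.5), and the intervals did not overlap. Cells with 10 or more UMIs made up 1.83% of virgin α cells (19 cells) and 8.36% of multipara α cells (54 cells). The largest count in a single cell was 40 and 124. The tenth of α cells with most Slc38a5 held 62.4% and 64.4% of its UMIs, so the counts were about as concentrated in either library. With each cell limited to 5 UMIs of the gene the log2 ratio was 0.64, and with 1 UMI 0.36, settings added after seeing the data.

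**Figure D2:**
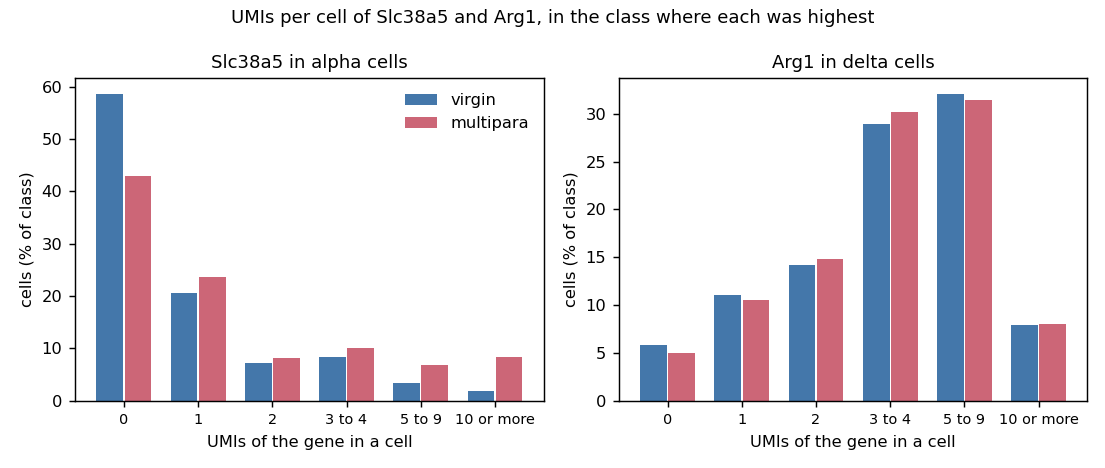
Share of cells (y axis, % of the cell type) by number of UMIs of the gene in a cell (x axis) for Slc38a5 in α cells and Arg1 in δ cells, with virgin and multipara bars side by side. For Slc38a5 the multipara bars are lower at 0 UMIs (58.7% virgin, 42.9% multipara) and higher at every count above, while for Arg1 the paired bars are of like height.

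Slc38a4 (chr15:96994820-97055956, minus strand) encodes SNAT4, a sodium-coupled carrier of alanine and other small neutral amino acids. Levels were 61.5 CPM (57.8 to 65.4) and 56.7 CPM (52.4 to 61.3) in α cells and 44.9 CPM (43.1 to 46.8) and 40.2 CPM (38.4 to 42.0) in β cells. δ cells held 7.58 and 8.81 CPM and PP cells 9.91 and 7.79 CPM, from at most 20 UMIs a sum. α and β cells thus shared the higher level and δ and PP cells the lower one. α and β cells were not separated on the TMM scale (log2 0.05 ± 0.08, edgeR adjusted p = 0.58), although scaling by plain totals gave 0.47 and a call. α cells exceeded δ cells by 3.38 ± 0.17 (edgeR adjusted p = 1.8e-11) and β cells exceeded them by 3.33 ± 0.16 (edgeR adjusted p = 1.4e-11). δ and PP cells narrowly missed the threshold (−0.93 ± 0.29, edgeR adjusted p = 0.051). Between the libraries the log2 ratio was −0.12 (−0.26 to 0.03) in α and −0.16 (−0.25 to −0.07) in β cells, close to the median of all genes, which was −0.10 in both.

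Slc7a2 (chr8:40862396-40922308, plus strand) encodes CAT2, which carries arginine, lysine and ornithine. Levels were 241 CPM (234 to 249) and 181 CPM (173 to 189) in α cells, 43.7 and 44.5 CPM in β cells, 10.4 and 11.2 CPM in δ cells and 21.8 and 36.7 CPM in PP cells. The order was α, β, PP and δ in both libraries. α cells exceeded β cells by 1.83 ± 0.11 in log2 (edgeR adjusted p = 1.1e-10) and δ cells by 4.81 ± 0.21 (edgeR adjusted p = 3e-12), and β cells exceeded PP cells by 0.71 ± 0.19 (edgeR adjusted p = 0.006). With cells thinned to 5000 UMIs the β over PP value was 0.68 and no longer passed (edgeR adjusted p = 0.10). Slc7a2 was seen in 91.6% and 88.7% of α cells, against 3.95% and 6.85% of endothelial cells, which were shallower.

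Slc7a2 was the second carrier to differ between the libraries in α cells, and its direction was opposite to that of Slc38a5. The log2 ratio was −0.42 (−0.49 to −0.34), the virgin level being 1.34 times the multipara level. Thinned to 5000 UMIs, the share of α cells with a UMI was 67.7% (64.6 to 70.7) and 56.7% (52.7 to 60.7), without overlap, but the intervals overlapped at 2500 UMIs and without thinning. Cells with 5 or more UMIs made up 35.5% of virgin and 22.0% of multipara α cells. Limiting each cell to 1 UMI brought the log2 ratio to −0.15, and its sign was the same in all 15 alternatives. In PP cells the order was the other way, with a log2 ratio of 0.75 (0.20 to 1.32) from 44 and 80 UMIs and a UMI in 28 of 88 and 48 of 90 cells. Thinned to 5000 UMIs the PP shares were 13.3% and 11.2%, and the log2 ratio was 0.01. PP cells with a Slc7a2 UMI held more Gcg than those without, 8151 against 5044 CPM in the virgin and 9165 against 3210 CPM in the multipara library. Other α markers did not follow in both libraries, with Ttr at 2145 against 2271 and 3048 against 2094 CPM, and Irx2 at 5.50 against 13.2 and 11.5 against 14.8 CPM. The 6 α markers, each detected in PP cells, summed to 2493 and 2952 CPM there. Their part in the PP difference was not tested.

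Slc7a5 and Slc7a8 encode LAT1 and LAT2, which exchange leucine and other large neutral amino acids, and Slc3a2 encodes the 4F2 heavy chain (CD98) that brings them to the cell surface. The light chains were highest in different hormone cell types, and both were present in α and β cells. Slc7a5 (chr8:121881150-121907694, minus strand) was at 26.8 CPM (25.4 to 28.2) and 30.1 CPM (28.6 to 31.7) in β cells and at 15.7 CPM (13.9 to 17.8) and 14.1 CPM (11.9 to 16.4) in α cells. δ cells held 9.47 and 7.63 CPM and PP cells 13.4 and 10.5 CPM. It was the only one of the 9 genes that was highest in β cells in both libraries in CPM, with a log2 fold change of α over β cells of −1.34 ± 0.10 (edgeR adjusted p = 3.3e-09) and of β over δ cells of 2.65 ± 0.19 (edgeR adjusted p = 3.1e-09). α and PP cells were not separated (0.05, edgeR adjusted p = 0.93).

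Slc7a8 (chr14:54722209-54781946, minus strand) had the opposite order in the main cell types. Its levels were 78.7 CPM (74.5 to 83.0) and 72.5 CPM (67.6 to 77.7) in α cells and 29.9 CPM (28.4 to 31.4) and 31.3 CPM (29.7 to 33.0) in β cells. PP cells held 18.3 and 13.8 CPM and δ cells 9.47 and 9.39 CPM. α cells exceeded β cells by 0.88 ± 0.08 in log2 (edgeR adjusted p = 3e-08) and δ cells by 3.52 ± 0.16 (edgeR adjusted p = 8.4e-12). A Slc7a8 UMI was also seen in 5 of 99 virgin and 22 of 102 multipara leukocytes, whose median depths were 2779 and 6620.5 UMIs. The leukocyte levels were 18.1 CPM (7.27 to 37.3) and 41.5 CPM (27.1 to 60.7), with overlapping intervals.

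Slc3a2 (chr19:8706882-8723369, minus strand) was present in all cell types. Levels were 153 CPM (148 to 159) and 153 CPM (145 to 160) in α cells, 94.0 CPM (91.4 to 96.7) and 99.2 CPM (96.4 to 102) in β cells, 64.9 and 75.1 CPM in δ cells and 60.5 and 72.9 CPM in PP cells. It was higher still in cells without hormone, at 348 and 475 CPM in endothelial cells and 318 and 407 CPM in leukocytes. α cells exceeded β cells by 0.24 ± 0.07 in log2 (edgeR adjusted p = 0.0078) and δ cells by 1.65 ± 0.10 (edgeR adjusted p = 2.6e-10). δ cells lay below PP cells on the TMM scale (−0.74 ± 0.12, edgeR adjusted p = 0.00033) but not with plain totals (0.065).

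Between the libraries none of the 3 genes of this system passed 1.5-fold in any of the 4 hormone cell types. In α cells the log2 ratios were −0.16 (−0.46 to 0.13) for Slc7a5, −0.12 (−0.25 to 0.01) for Slc7a8 and −0.01 (−0.10 to 0.08) for Slc3a2. In β cells they were 0.17 (0.06 to 0.28), 0.07 (−0.04 to 0.17) and 0.08 (0.02 to 0.14). The β cell sign of each turned in at least 1 of the 15 alternatives, Slc7a5 to −0.02 when cells were thinned, Slc7a8 to −0.15 with each cell weighted equally and Slc3a2 to −0.12 with each cell limited to 1 UMI.

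Arg1 (chr10:24915221-24927484, minus strand) encodes the cytosolic arginase that splits arginine into ornithine and urea and is best known from the liver urea cycle. In islets it was a δ cell transcript. δ cells held 412 CPM (385 to 440) and 433 CPM (403 to 466), with a UMI in 94.2% and 95.1% of cells. α cells held 57.5 CPM (53.9 to 61.2) and 46.0 CPM (42.1 to 50.2). PP cells held 16.4 and 14.2 CPM, and β cells 5.98 CPM (5.33 to 6.68) and 2.03 CPM (1.64 to 2.48). All 6 pairs of cell types passed the test on the TMM scale, although α over PP missed it with DESeq2 (adjusted p = 0.053) and β over PP when cells were thinned to 5000 UMIs (edgeR adjusted p = 0.099). δ cells exceeded β cells by the most, with a log2 fold change of β over δ of −5.81 ± 0.21 (edgeR adjusted p = 1.8e-13), and α over δ was −2.53 ± 0.18 (edgeR adjusted p = 3.6e-09). The libraries taken singly gave −5.17 and −6.80 for β over δ, 2.84 and 4.08 for α over β, which was 3.28 ± 0.21 with both (edgeR adjusted p = 1.4e-10), and −1.30 and −2.69 for β over PP.

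In α cells Arg1 stood at 14.0% and 10.6% of its δ cell level. That lay between the δ cell factor Hhex, at 0.677% and 0.117%, and the secreted retinol carrier Rbp4, another δ marker, at 20.8% and 13.7%. The share of α cells with an Arg1 UMI was 47.5% and 42.0%, beside 1.19% and 0.457% of endothelial cells at lower depth. In β cells Arg1 stood at 1.45% and 0.468% of the δ cell level and Hhex at 0.943% and 0.424%. Rbp4 stood there at 1.75% and 0.802% and Ghsr, from 5 and 3 UMIs, at 0.693% and 0.389%. In PP cells Arg1 stood at 3.97% and 3.28% and Hhex at 4.49% and 2.16%. Rbp4 stood there at 7.07% and 6.31% and Ghsr, from 4 and 1 UMIs, at 14.4% and 2.79%.

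Between the libraries, Arg1 in δ cells gave a log2 ratio of 0.07 (−0.07 to 0.22). In α cells it was −0.32 (−0.48 to −0.16), where the δ markers summed to 1184 and 814 CPM, with Ghsr at 0 in the multipara library. In β cells the multipara level was lower, with a log2 ratio of −1.56 (−1.91 to −1.22) from 314 and 95 UMIs, a virgin level 2.95 times the multipara level. The δ cell markers moved with it in β cells. All 3 were detected there in both libraries, their sum was 103 and 49.1 CPM, and Hhex went from 175 to 76 UMIs. The β cells with an Arg1 UMI, 122 virgin and 55 multipara cells, carried Hhex in 29.5% and 30.9%, against 1.24% and 1.05% of the other β cells, and Sst at 14922 and 12122 CPM, against 180 and 135 CPM. Their part in the β cell difference of Arg1 was not tested. Thinned to 5000 UMIs, 2.52% (1.82 to 3.39) and 0.432% (0.159 to 0.938) of β cells had an Arg1 UMI, with 151 and 196 shallower β cells left out.

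Glud1 (chr14:34310727-34345265, plus strand) encodes mitochondrial glutamate dehydrogenase, the enzyme through which leucine stimulates insulin release. Levels were 99.8 CPM (95.1 to 105) and 93.4 CPM (87.8 to 99.2) in α cells, 70.1 CPM (59.3 to 82.3) and 61.6 CPM (50.4 to 74.6) in δ cells, 44.6 and 44.0 CPM in PP cells and 26.6 CPM (25.2 to 28.0) and 24.8 CPM (23.4 to 26.3) in β cells. β cells were the lowest of the 4 types in both libraries. α cells exceeded β cells by 1.49 ± 0.08 in log2 (edgeR adjusted p = 6.8e-12), δ cells by 1.07 ± 0.10 (edgeR adjusted p = 1e-07) and PP cells by 0.84 ± 0.11 (edgeR adjusted p = 2.2e-05). δ and PP cells were not separated on the TMM scale (−0.23, edgeR adjusted p = 0.30), and with plain totals δ cells were higher (0.57). Endothelial cells held 133 and 146 CPM, so the gene was not particular to endocrine cells. Between the libraries its log2 ratio lay between −0.19 and −0.02 in the 4 cell types, and each counting interval included 0.

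Got1 (chr19:43499752-43524605, minus strand) encodes cytosolic aspartate aminotransferase, a part of the malate-aspartate shuttle that carries reducing equivalents into mitochondria. It was the most even of the 9 genes. Levels were 16.9 CPM (15.0 to 19.0) and 15.0 CPM (12.8 to 17.4) in α cells, 13.5 CPM (12.5 to 14.5) and 15.9 CPM (14.8 to 17.1) in β cells, 19.9 and 16.4 CPM in δ cells and 15.9 and 12.4 CPM in PP cells. The counting intervals of neighbouring cell types overlapped in both libraries. On the TMM scale it was lower in α than in β cells (−0.29 ± 0.12, edgeR adjusted p = 0.043) and higher in β than in δ cells (0.62 ± 0.19, edgeR adjusted p = 0.012), and both directions turned with plain totals (0.13 and −0.33). In β cells the log2 ratio between the libraries was 0.24 (0.09 to 0.39), and in α cells −0.18 (−0.46 to 0.10).

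Set side by side, the 9 genes differed little between virgin and multipara islets apart from 3 values. Among genes with at least 50 UMIs, 1 of 9 was over 1.5-fold higher in multipara α cells (Slc38a5), as were 1.19% of all genes, and none was over 1.5-fold lower (3.9% of all genes). In β cells 1 of 9 was over 1.5-fold lower (Arg1), as were 5.41% of all genes, and none was over 1.5-fold higher (2%). In PP cells 1 of 7 was over 1.5-fold higher (Slc7a2), as were 1.47% of all genes, and none was over 1.5-fold lower (5.97%). In δ cells 0 of 5 passed 1.5-fold, beside 1.88% of all genes higher and 5.03% lower, and every δ cell counting interval of the 9 genes included 0. The median ratio of all genes was itself −0.10 in α, −0.10 in β, −0.08 in δ and −0.11 in PP cells, and relative to it the α cell ratio of Slc38a5 was 1.28. Shares of cells with a UMI at 5000 UMIs had intervals that did not overlap for 3 of the 36 pairs of gene and cell type. In α cells these were Slc38a5, higher in multipara as were 0.56% of all genes with at least 50 UMIs, and Slc7a2, lower as were 1.48%. In β cells the share of Arg1 was lower, as were 3.66% of all genes (1.83% were higher). No member stood apart in δ cells (0.215% of all genes higher, 0.415% lower) or PP cells (0.0969% and 0.233%). At 2500 UMIs only Slc38a5 in α cells remained without overlap.

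**Figure D3:**
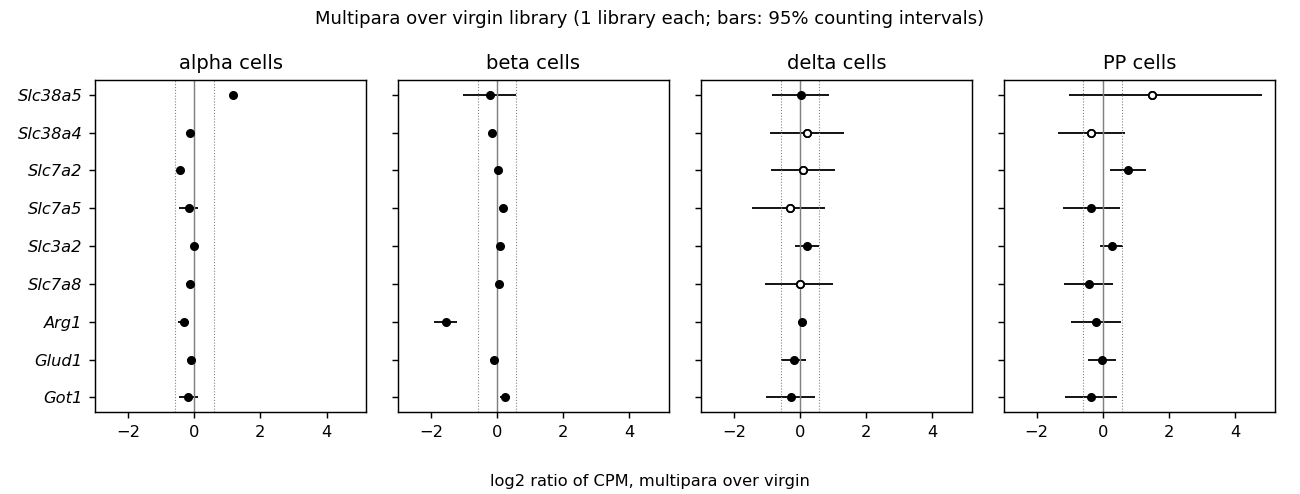
Log2 ratio of CPM, multipara over virgin (x axis), of the 9 genes (y axis) in α, β, δ and PP cells (panels); bars are 95% counting intervals, hollow points have fewer than 50 UMIs in both libraries together and dotted lines mark 1.5-fold. Most points lie between the dotted lines, and Slc38a5 in α cells at 1.18 and Arg1 in β cells at −1.56 lie outside them with their whole interval.

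For the 8 genes whose levels ranged over more than 2-fold, the genes most like them were sought by Pearson's r of log2(CPM + 1) over the 8 sums, out of 6720 genes whose mean reached 10 CPM. The 8 points share libraries and the totals of their cell types, so r is a description. Slc38a5 was nearest to Ifih1, Upp1 and Map3k15 (each r = 0.98), Slc38a4 to Socs3, Pabpc4 and Lsm14b, and Slc7a2 to mt-Nd1, Tmsb15l and Tmsb15b2. Slc7a5 was nearest to Tmed9, Glrx and Nans, Slc3a2 to Vgf, Glrb and Zfp568, and Slc7a8 to Glrb, Nr4a2 and Slc7a2. Arg1 was nearest to Avl9, Snrnp200 and Map9, and Glud1 to the ribosomal protein gene Rps24 and to Faap100. Each r was at least 0.963. Pearson's r does not compare the size of a range. Avl9 ran from 31.0 CPM in multipara β to 82.9 CPM in virgin δ cells, beside 2.03 CPM (multipara β) to 433 CPM (multipara δ) for Arg1. Likewise mt-Nd1 ran only from 1467 CPM in multipara δ to 2532 CPM in virgin α cells. The range of Tmsb15l was wide, from 1.42 CPM in virgin δ to 78.2 CPM in virgin α cells. Tmsb15l and Tmsb15b2 are near-identical copies whose reads may be split, and their separate values are uncertain.

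Other genes of the same pathways were followed as 3 lists, and each gene named with its SE passed edgeR's test at an adjusted p below 0.05. Of 43 further amino acid carriers 31 were tested, and 6 were higher and 16 lower in α than in β cells (median log2 fold change −0.33), beside 27.5% and 28.7% of all genes. With plain totals the counts were 12 and 10, beside 6825 higher and 1812 lower among all 12784 genes. Slc38a11, of the same family as Slc38a5, led the higher ones at 3.31 ± 0.74 but rested on 15 and 6 UMIs in α and 2 and 3 in β cells, and the libraries taken singly gave 4.14 and 2.65. It was followed by Slc7a7, the partner of Slc3a2 that exports arginine and lysine (3.25 ± 0.47, and 3.98 and 2.75 in the libraries taken singly), the glutamine exchanger Slc1a5 (1.83 ± 0.35) and Slc6a17 (1.02 ± 0.10). The lowest were Slc6a19 (−3.26 ± 0.45), the cystine carrier Slc7a11 (−2.60 ± 0.49), the glycine carrier Slc6a9 (−2.36 ± 0.66) and the mitochondrial carrier of basic amino acids Slc25a29 (−1.96 ± 0.17).

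Of 49 further enzymes of amino acid metabolism 40 were tested, and 7 were higher and 23 lower in α than in β cells (median −0.63). Among all genes tested 27.5% were higher and 28.7% lower. With plain totals the counts were 13 and 14, beside 6825 and 1812 among all 12784 genes. Oat, which turns ornithine, the product of arginase, into a precursor of glutamate and proline, led the higher ones at 5.85 ± 0.17 (edgeR adjusted p = 2e-15). Its levels were 45.6 and 62.9 CPM in α and 0.723 and 0.640 CPM in β cells, an α cell pattern like that of Slc38a5. The glycine decarboxylase gene Gldc (1.89 ± 0.26) and Aldh4a1 of proline breakdown (0.98 ± 0.17) followed. The lowest were Gad1 of GABA synthesis (−5.06 ± 0.16; 37.7 and 34.2 CPM in β, 1.14 and 1.88 CPM in α cells), the branched-chain transaminases Bcat1 (−4.75 ± 1.05) and Bcat2 (−2.01 ± 0.16), and Phgdh, the first enzyme of serine synthesis (−4.01 ± 0.18). The Bcat1 value came from the multipara library, since the virgin sums held 1 UMI in α and 3 UMIs in β cells.

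Of 27 amino acid sensing genes 25 were in the matrices and tested, and 6 were higher and 10 lower in α than in β cells (median −0.14). Among all genes tested 27.5% were higher and 28.7% lower. With plain totals the counts were 13 and 6, beside 6825 and 1812 among all 12784 genes. The higher ones were led by the leucine sensor family genes Sesn1 (0.67 ± 0.11) and Sesn3 (0.49 ± 0.08), Eif2ak4, the kinase GCN2 that senses uncharged tRNA (0.58 ± 0.17), and Rptor of mTOR complex 1 (0.42 ± 0.13). The lowest were Trib3 (−4.06 ± 0.36, and −4.81 and −3.45 in the libraries taken singly), Chac1 (−2.12 ± 0.14), Eif4ebp1 (−1.99 ± 0.12) and Ddit4 (−1.77 ± 0.10), which are known targets of the stress factor ATF4.

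The other cell types were set against each other in the same way, in the order carriers, enzymes and sensing genes. α cells had 5, 11 and 5 genes higher and 6, 5 and 1 lower than δ cells, beside 14.8% and 14.9% of all genes, and with plain totals 0, 7 and 0 higher and 9, 12 and 7 lower. β cells had 10, 20 and 15 higher and 6, 6 and 2 lower than δ cells (21.6% and 21.1% of all genes), and with plain totals 4, 10 and 5 higher and 15, 16 and 15 lower. Between β and δ cells the larger side of each list thus turned with the scaling. Against PP cells, β cells had 12, 16 and 9 higher and 4, 3 and 5 lower (17.5% and 16.1% of all genes), and with plain totals 9, 15 and 7 higher and 4, 6 and 7 lower. α cells had 1, 5 and 2 higher and 2, 2 and 0 lower than PP cells (6.46% and 6.78%), and with plain totals 4, 10 and 7 higher and 1, 1 and 0 lower. δ cells had 4, 3 and 0 higher and 2, 9 and 3 lower than PP cells (7.62% and 7.92%), and with plain totals 12, 11 and 16 higher and 1, 2 and 0 lower, so that enzymes and sensing genes turned. Among all genes, plain totals gave 627 higher and 5876 lower in α than in δ cells, 621 and 8593 in β than in δ cells, 1715 and 2697 in β than in PP cells, 2650 and 457 in α than in PP cells and 7161 and 231 in δ than in PP cells.

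**Figure D4:**
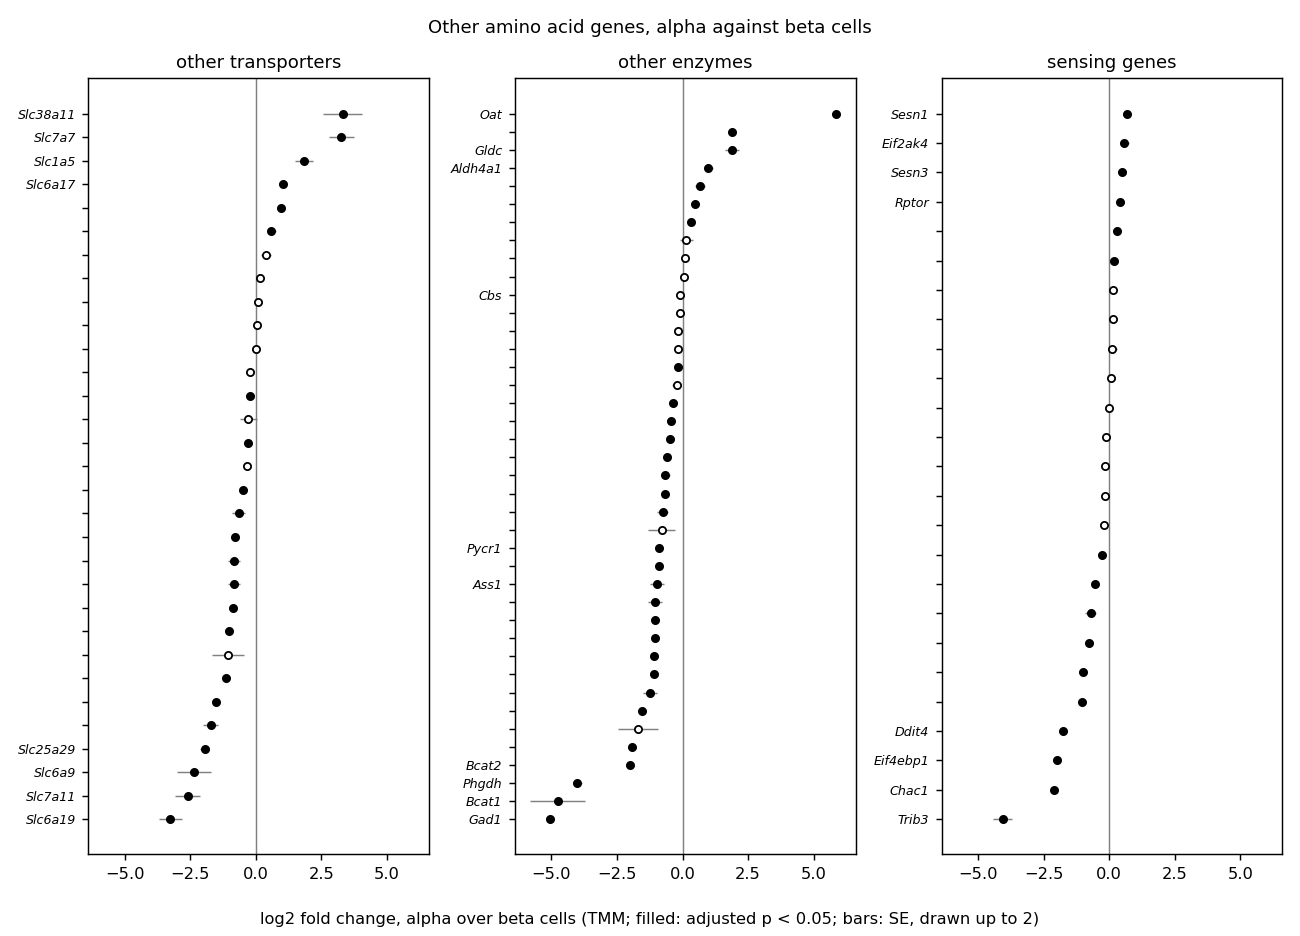
Log2 fold change of α over β cells (x axis, TMM scale) for the further carriers, enzymes and sensing genes (panels, 1 gene a row, labelled where the results name it); bars are SE and filled points passed an adjusted p of 0.05. In each panel more filled points lie below 0 than above it, 16 against 6, 23 against 7 and 10 against 6.

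Between the libraries these lists moved little as a whole. In α cells the median log2 ratio was −0.09 for 24 carriers, 0.02 for 33 enzymes and 0.03 for 24 sensing genes with at least 50 UMIs. In β cells it was −0.09 for 29 carriers and 0.00 for 25 sensing genes, but 0.20 for 40 enzymes. Of these enzymes 30 had a ratio above 0 and 10 below. The median of all genes was −0.10 in α and in β cells, so more genes had a ratio below 0 than above it. Past 1.5-fold were 1 carrier lower in α cells and 1 higher in β cells, 1 enzyme higher and 1 lower in α cells, 3 enzymes higher and 1 lower in β cells, and no sensing gene in either, beside 1.19% of all genes higher and 3.9% lower in α and 2% and 5.41% in β cells. Cystathionine beta-synthase (Cbs), which joins homocysteine and serine, was higher in multipara α cells, at 15.7 and 32.8 CPM (log2 ratio 1.06, 0.83 to 1.29), with a UMI in 7.65% and 14.5% of cells thinned to 5000 UMIs. Pycr1, the last enzyme of proline synthesis, was higher in multipara β cells, at 9.69 and 17.8 CPM (0.88, 0.72 to 1.04). Ass1, which forms argininosuccinate on the way to arginine, was lower there, from 156 to 86 UMIs (−0.69, −1.09 to −0.31). Within α cells, Cbs was seen in 26.3% of virgin cells with and 18.1% of those without a Slc38a5 UMI, and in 49.6% and 29.6% in the multipara library. The cells with a Slc38a5 UMI were also deeper, with medians of 17848 against 15342 and 18654 against 15676 UMIs.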

How the data were processed

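Dissociated islet cells were captured with 10x Chromium 3′ v3.1 chemistry, 1 library per group. Per the submitters' processing notes, reads were handled with Cell Ranger 3.1.0 and Seurat 3.0 on GRCm38 (mm10). The matrices deposited by the authors list unnormalized UMI counts for each gene in each called barcode; the smallest barcode had 500 UMIs. Because UMIs were counted at the 3′ end, levels of different genes were not compared. Kept cells had over 200 and under 6000 genes, under 60000 UMIs and under 10% mitochondrial UMIs, which left 4391 and 3374 cells. Scrublet (scanpy 1.11.5) then removed 61 virgin (1.39%) and 44 multipara (1.30%) doublets. A cell was gated if its hormone gave at least 5% of its UMIs, at least 50 UMIs and at least 80% of the UMIs of the 4 hormones, with non-endocrine markers under 0.1%; this took 72.4% and 74.6% of kept cells.

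UMIs were summed per library and cell type. Ratios between libraries carry exact conditional binomial and shares exact Clopper-Pearson 95% intervals, for counting error only. Cell types were compared with edgeR 4.0.16 (quasi-likelihood, TMM, cell type plus library, at least 50 UMIs over the 8 sums, 3 residual degrees of freedom). DESeq2 1.42.0 was an alternative. R 4.3.3, limma 3.58.1, python 3.11.15, numpy 2.4.6, pandas 2.3.3, scipy 1.17.1 and matplotlib 3.10.9 were also used. Scripts were tested on simulated data. Gene positions came from GENCODE M21 on GRCm38, which held 30934 of the 31053 identifiers. The 9 genes and the lists were chosen with earlier results of these data known. Further genes were named as the 4 highest and 4 lowest called log2 fold changes of a list in α over β cells, and as those past 1.5-fold between libraries in α or β cells with at least 200 UMIs. A few genes that met these rules or were followed as markers are not reported here.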

Additional observations from a re-analysis of the deposited data

Results flagged for a closer look

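Slc38a5 was also present in droplets that entered no comparison, each above the limit that a count of 0 allows. Among barcodes that met the glucagon gate but failed the cell filter, 56 virgin barcodes gave 48.8 CPM (27.3 to 80.5) and 41 multipara barcodes 153 CPM (115 to 200), the same order as in α cells. Among cells in which glucagon gave 60 to 80% of the hormone UMIs, 62 virgin cells gave 52.4 CPM (40.5 to 66.8) and 46 multipara cells 35.0 CPM (24.7 to 48.3), the opposite order. These values rest on 15, 55, 65 and 37 UMIs.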

How the results depend on the processing

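Of 36 ratios between the libraries for the 9 genes, 19 kept their sign under all 15 alternatives, and of 54 differences between cell types 44 did under all of theirs. Where a value past the threshold was involved, 4 directions turned, each with plain totals, a setting added after seeing the data: Got1 to 0.13 (α over β) and −0.33 (β over δ), and Slc3a2 to 0.065 and Glud1 to 0.57 (δ over PP). Arg1 in β cells ranged from −2.32 (thinned) to −0.98 (1 UMI a cell), Slc38a5 in α cells from 0.36 to 1.28 and Slc7a2 in PP cells from 0.01 to 0.90. Genes past 1.5-fold numbered 545 in α, 881 in β, 482 in δ and 384 in PP cells. With at least 10 UMIs they were 1583, 2058, 1905 and 2229, with at least 200 UMIs 116, 327, 35 and 13, with each cell weighted equally 827 in α, 1681 in β and 651 in PP cells, and thinned 107 in PP cells. TMM moved the split of higher and lower genes in α cells from 127 and 418 to 189 and 274, in β cells from 238 and 643 to 317 and 497, in δ cells from 131 and 351 to 214 and 219, and in PP cells from 76 and 308 to 143 and 182. Genes called between cell types fell with thinning from 7178 to 4756 (α over β), 3803 to 2283 (α over δ), 1693 to 551 (α over PP), 5453 to 3471 (β over δ), 4303 to 1646 (β over PP) and 1986 to 683 (δ over PP). With plain totals they were 6503 (α over δ), 3107 (α over PP), 9214 (β over δ) and 7392 (δ over PP), and α over β split into 6825 higher and 1812 lower beside 3512 and 3666 with TMM. Shares without overlapping intervals fell from 3 to 1 at 2500 UMIs (Slc38a5 in α cells), and without thinning Slc3a2 in β cells took the place of Slc7a2. The cause of these moves was not tested. DESeq2 lost the calls of Got1 (α over β, β over δ) and Arg1 (α over PP), and of the list genes Bcat1, Slc6a9, Eif2ak4 and Rptor (α over β). The main fit held the library as a block, and without it Slc3a2 and Got1 (α over β) and Slc38a5 (δ over PP) were lost. Thinning lost Glud1 (β over δ), Slc7a2, Slc3a2, Slc7a8, Arg1 and Glud1 (β over PP), and Slc38a5 and Slc7a5 (δ over PP). No paired analysis was possible because the labels give no replicate numbers and each group is 1 library. For δ and PP cells, depth limits the values: 4 and 2 of the 9 genes had under 50 UMIs.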

Other observations

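A few further list genes differed between the libraries, and they were chosen after their values were seen. In β cells Bcat1, a cytosolic branched-chain transaminase, had 3 virgin and 108 multipara UMIs (log2 ratio 5.33, 3.75 to 7.63), in 0.165% and 5.30% of cells. Gad2, of GABA synthesis, had 5 and 77 UMIs (4.11, 2.83 to 5.77), and 2.14 after thinning. The cystine carrier Slc7a11 had 45 and 117 UMIs (1.54, 1.04 to 2.07). Of the 84 multipara β cells with a Bcat1 UMI, 52.4% also had Pycr1, against 34.8% of the 1501 others, at median depths of 40065.5 and 31927 UMIs. In α cells Oat was higher in the multipara library (0.46, 0.31 to 0.61), and Slc25a15, the mitochondrial ornithine carrier, was lower, from 53 to 19 UMIs (−0.90, −1.74 to −0.12), as was Amt of glycine breakdown, from 128 to 56 UMIs (−0.61, −1.09 to −0.15). In δ and PP cells the list genes past 1.5-fold were Sat1 of polyamine breakdown (0.66 in δ and 0.97 in PP cells), Slc43a2 (0.67), Glul (−0.61) and Bckdha (−0.77), the last 3 in PP cells. With at least 50 UMIs, δ cells had 13 carriers, 18 enzymes and 16 sensing genes, and PP cells 9, 18 and 12. Among all genes, 1.88% were over 1.5-fold higher and 5.03% lower in δ cells, and 1.47% and 5.97% in PP cells.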
